A study of Mus musculus with 2 samples.

Results

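The miR-29 family is described here through its 4 mouse genes, Mir29a, Mir29b-1, Mir29b-2 and Mir29c, out of 2202 microRNA (miRNA) genes in the tables. They were taken by gene name: each Ensembl identifier in the tables was matched to its GENCODE M21 name, and all 4 names were found once. Small RNA was sequenced from adrenal glands of females labelled 5xFAD/CAST, adults of 8 to 10 months. The 5xFAD transgenes express mutant human Alzheimer's disease genes from a neuronal promoter, and CAST names a wild-derived castaneus strain. The labels do not say whether each animal carried the transgenes. There is 1 group with 2 libraries, named biological replicates 1 and 2, and so no contrast between conditions. The libraries have separate biosamples and the same donor identifier, so SDs describe the spread between these samples, which may be technical.

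MicroRNAs are short RNAs cut from hairpin precursors. One arm of the hairpin is usually kept and pairs with messenger RNAs through its seed, bases 2 to 8, which lowers the output of those messengers. The miR-29 family is known for restraining collagens and other proteins of the extracellular matrix, and loss of miR-29 in fibroblasts accompanies fibrosis in heart, lung and liver. The arm that does this is the 3′ arm (3p), and the 5′ arm (5p) is the lesser product. In the adrenal gland the collagen-rich matrix lies in the capsule, in the septa and around the sinusoids, so whole-gland RNA mixes stromal, vascular and steroid-producing cells.

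The mature sequences show why the 4 genes belong together and which of their reads can be told apart. They are from RefSeq (build GRCm38.p6, the same build as mm10), where all 4 genes were found, and are printed 5′ to 3′ with the seed in capitals. The first 3 are the 3p arms and share the seed AGCACCA, which no other mature miRNA in the RefSeq table had.
miR-29a-3p: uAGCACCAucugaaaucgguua
miR-29b-3p: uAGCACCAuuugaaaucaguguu
miR-29c-3p: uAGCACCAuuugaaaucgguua
miR-29a-5p: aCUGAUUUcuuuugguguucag
miR-29b-1-5p: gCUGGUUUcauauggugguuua
miR-29b-2-5p: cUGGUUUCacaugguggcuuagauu
miR-29c-5p: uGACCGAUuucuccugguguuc
Counted from 1 at the 5′ end, miR-29a-3p differs from miR-29c-3p by the single substitution C10U over 22 bases. From miR-29c-3p to miR-29b-3p there are 3 substitutions over the first 22 bases, G18A, U21G and A22U. The 5p arms do not share the family seed, and their own seeds differ from one another. Only miR-29b-3p is made from more than 1 of these genes, as the same 23 bases lie in Mir29b-1 and in Mir29b-2.

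The copies of miR-29b-3p are identical from 2 bases ahead of the mature arm to its last base. The next lines print the 29 bases around that arm from each precursor, read from the GENCODE M21 transcripts on the strand of the gene, with the 25 bases common to both in lower case and the flanking bases in capitals. The stretch of Mir29b-1 is chr6:31063023-31063051 on the minus strand, and that of Mir29b-2 is chr1:195037087-195037115 on the plus strand (mm10).
Mir29b-1: UGucuagcaccauuugaaaucaguguuCU
Mir29b-2: UAucuagcaccauuugaaaucaguguuUU
A read that starts at the first base of miR-29b-3p must reach 24 bases, 1 more than the mature sequence, before it matches only one of the copies. For miR-29c-3p, 18 bases from its start matched no other annotated miRNA gene, and for miR-29a-3p 10 bases were enough. Over all windows of 22 bases along the precursors, 0 of 67 in Mir29a, 1 of 67 in Mir29c, 5 of 50 in Mir29b-1 and 4 of 60 in Mir29b-2 occur in another miRNA gene. These searches covered annotated miRNA genes, not the whole genome.

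Messenger RNA was not measured in these samples, so the effect of the family on collagen cannot be read from them. What can be read is where its seed match lies. The complement of the seed is TGGTGCT (7 bases), and the strongest class of site adds an A opposite the first miRNA base, TGGTGCTA (8 bases, which contains the 7-base match). Both were searched on the transcript strand only, since a messenger pairs with the miRNA as transcribed, in the longest annotated 3′ untranslated region (UTR) of each protein-coding gene in GENCODE M21. The 7-base match was in 25 of 44 collagen genes (56.8%), against 2755 of all 21020 genes (13.1%). The 8-base match was in 16 of the 44 (36.4%), against 599 of all genes (2.85%). Median UTR lengths were 1032.5 bases for collagen genes and 961 bases for all. A match is a sequence only, and no binding was measured. Among the 16, Col4a5 had 3 such matches, and Col1a2, the partner chain of Col1a1 in type I collagen, had neither match in its longest annotated UTR. The 3 examples below are the major fibrillar collagens of connective tissue, Col1a1 and Col3a1, and the basement membrane collagen Col4a1, with the 8-base match in capitals.
Col1a1, chr11:94952527-94952556, plus strand: gaaggaatttcTGGTGCTAtagaagctgag
Col3a1, chr1:45348971-45349000, plus strand: aaatgtctcaaTGGTGCTAtaataaataaa
Col4a1, chr8:11199750-11199779, minus strand: ccgtcacaacaTGGTGCTActcccccccct

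**Figure D1:**
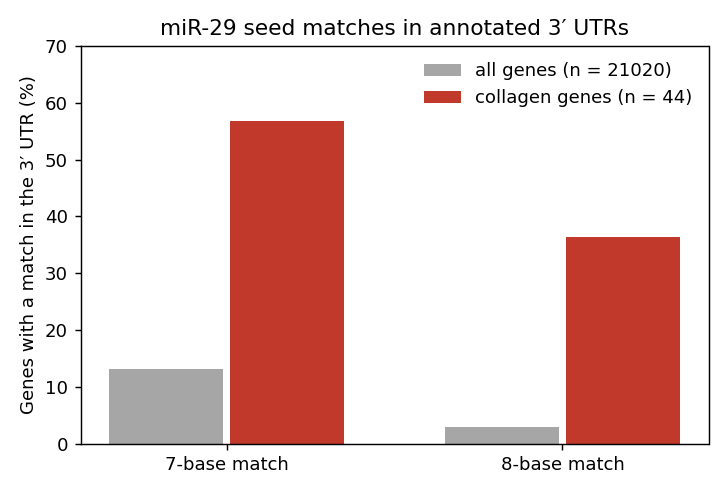
Share of genes (%, y axis) with a 7-base or 8-base match to the miR-29 seed in the longest annotated 3′ UTR, for all protein-coding genes (gray) and for collagen genes (red); bars start at 0 and carry no error bar because the annotation is counted whole. Matches stand in 56.8% and 36.4% of collagen genes and in 13.1% and 2.85% of all genes.

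The genes form 2 loci (mm10). On chromosome 6, Mir29b-1 (ENSMUSG00000065604.2, 31063023 to 31063093) and Mir29a (ENSMUSG00000065610.1, 31062660 to 31062747) lie on the minus strand with 275 bases between them. Both are intergenic apart from 2 bases at the 5′ end of Mir29b-1 that overlap an exon of the noncoding gene Gm27019. On chromosome 1, Mir29b-2 (ENSMUSG00000065412.3, 195037040 to 195037120) and Mir29c (ENSMUSG00000065548.1, 195037547 to 195037634) lie on the plus strand with 426 bases between them. Both are within an exon of the noncoding gene A330023F24Rik. On the opposite strand they lie under the 3′ UTR of Cd46, a complement regulator. No other miRNA gene was near, the closest being Mir335 at 321 kb and Gm24802 at 191 kb.

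**Figure D2:**
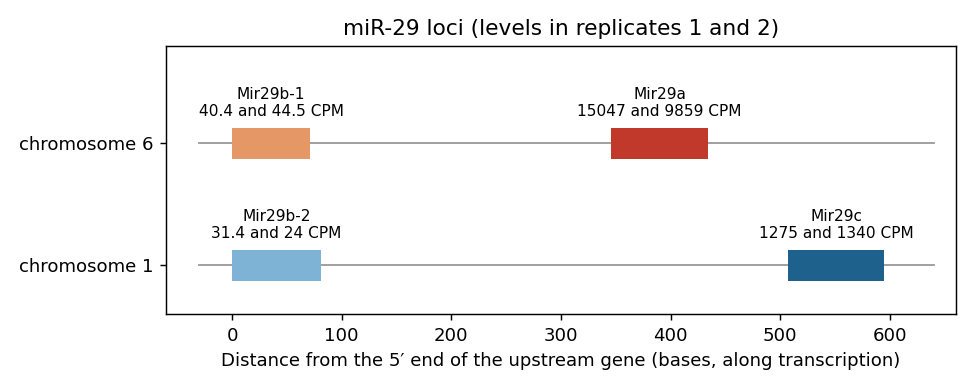
Map of the miR-29 loci drawn to scale, as distance in bases from the 5′ end of the upstream gene along the direction of transcription; boxes are the annotated precursor genes, with their levels in replicates 1 and 2. In reads assigned to a gene, the upstream copy of miR-29b is the low one at each locus, at 24.0 to 44.5 CPM, and the downstream gene is the high one.

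Levels are in CPM (a gene's reads for every 1000000 on miRNA genes), from the count column that holds 1 strand. Replicate 1 had 3635851 and replicate 2 had 6924829 such reads, so replicate 2 was 1.90 times deeper. For all 4 genes the both-strand column held the same number of reads and the opposite strand held 0, as for 302 of the 356 genes with at least 10 reads in each library. The columns differed for some genes named below. Mir126a had 2 and 10 reads in the both-strand column, and Mir451a, Mir24-2 and Mir30e had 0. Levels of these genes rest on the 1-strand column alone. Counts are per precursor, so the arms are not separated, and a library is counted by whole short reads, so counts were not divided by precursor length.

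Mir29a held most of the reads that were assigned to a miR-29 gene, which leaves out reads with several genomic matches. It had 54710 reads or 15047 CPM in replicate 1 and 68275 reads or 9859 CPM in replicate 2, a mean of 12453 ± 3668 CPM (SD, n = 2) and rank 22 of 2202 genes. Mir29c, which differs from it by 1 base in the active arm, had 4637 and 9282 reads, or 1275 and 1340 CPM, a mean of 1308 ± 46.0 CPM and rank 64. Between these genes the libraries do not overlap, and the gap is far wider than the spread of either.

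The copies of miR-29b were low in assigned reads. Mir29b-1 had 147 and 308 reads, or 40.4 and 44.5 CPM, a mean of 42.5 ± 2.86 CPM (SD, n = 2). Mir29b-2 had 114 and 166 reads, or 31.4 and 24.0 CPM, a mean of 27.7 ± 5.22 CPM. Mir29b-1 was the higher in both libraries, by 1.29-fold in replicate 1 (95% interval 1.00 to 1.66) and by 1.86-fold in replicate 2 (1.53 to 2.25). The order of the 4 genes, Mir29a, Mir29c, Mir29b-1 and Mir29b-2, was the same in each library. No test of the order over samples was made, and the lower bound in replicate 1 leaves the last step near equality there.

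Together the 4 genes took 1.64% of miRNA-gene reads in replicate 1 (95% interval 1.63 to 1.65%, Clopper-Pearson) and 1.13% in replicate 2 (1.12 to 1.13%), a mean of 1.38% ± 0.362 (SD, n = 2). Mir29a made up 91.8% and 87.5% of the family's reads and Mir29c 7.78% and 11.9%. Both copies of miR-29b added 0.438% and 0.607%, which is 261 and 474 reads. These shares leave out reads with several genomic matches, among them full reads of miR-29b-3p. Intervals cover counting error only, since reads copied by PCR and carrying no molecular identifier do not each stand for a molecule. In whole gland, fewer cells of a type and less RNA per cell cannot be told apart.

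**Figure D3:**
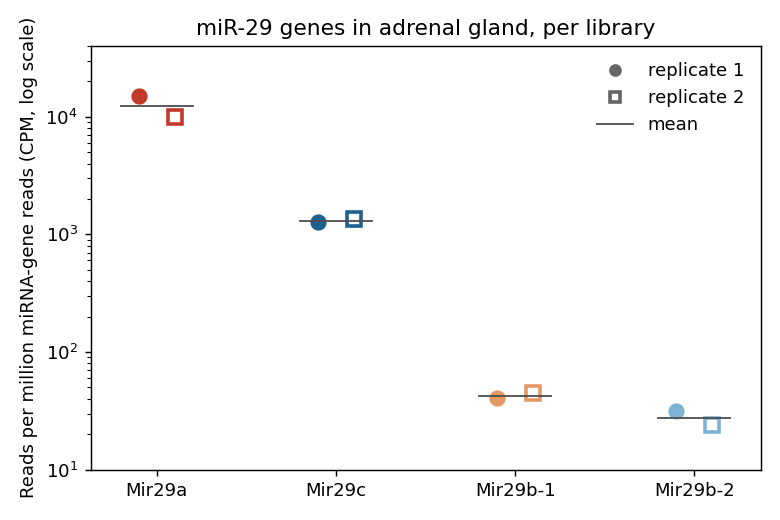
Level of each miR-29 gene (CPM, log scale) in replicate 1 (filled circle) and replicate 2 (open square), with the mean as a line. Mir29a stands at 9859 to 15047 CPM, Mir29c at 1275 to 1340, and the copies of miR-29b between 24.0 and 44.5.

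The level of miR-29b itself cannot be read from these counts. Reads with several genomic matches were assigned to no gene, and they numbered 2454066 in replicate 1 and 5165270 in replicate 2, or 31.6% and 33.6% of all reads. That is 44.9 and 75.7 times the reads on Mir29a. How many of them were miR-29b-3p is not recorded. A perfect read of the 23-base mature sequence, printed above, matches both loci and falls in this class. The reads that remain on Mir29b-1 and Mir29b-2 can come from the 5p arms, which are unique, or from 3p reads that run at least 1 base past the shared stretch or start ahead of it, and the per-precursor counts do not separate these. The values of Mir29b-1 and Mir29b-2 are thus lower limits for the output of each locus, whereas the sequences of Mir29a and Mir29c are not shared in full with any annotated miRNA gene.

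Within a locus the assigned reads of the partners can be compared without any scaling, as both come from one library. Full reads of miR-29b-3p are left out, so these are not ratios of the partners' output. Mir29a exceeded Mir29b-1 by 372-fold in replicate 1 (95% interval 317 to 441, from the exact binomial interval of the pair's reads) and by 222-fold in replicate 2 (198 to 249). Mir29c exceeded Mir29b-2 by 40.7-fold (33.8 to 49.4) and 55.9-fold (48.0 to 65.6). For the chromosome 6 pair the intervals of the libraries do not overlap, and for the chromosome 1 pair they do. Divided by precursor length, which was done only here, the ratios were 300.3 and 179 at chromosome 6 and 37.4 and 51.5 at chromosome 1. Since whole short reads are counted, the undivided ratios are the main ones. The ratio shifted in opposite directions between the libraries, by -0.75 (log2, replicate 2 minus replicate 1) at chromosome 6 and by 0.46 at chromosome 1. Over all 69 pairs of detected neighboring miRNA genes (same strand, under 1000 bases apart) the median absolute shift was 0.51.

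In assigned reads, which lack full reads of miR-29b-3p, these partner ratios were among the widest of any neighbors. On the log2 scale, averaged over the libraries, Mir29a over Mir29b-1 stood at 8.17, the highest of the 69 pairs, and Mir29c over Mir29b-2 at 5.58, the seventh highest. The median pair stood at 2.41. Sharing of a mature sequence with another gene differed between pairs. The median log2 ratio was 2.09 over the 15 pairs whose lower gene shares one and 2.43 over the other 54. In a finer split it was 3.25, from 0.12 to 8.17, over the 11 pairs in which only the lower gene shares one. Both miR-29 pairs are counted in the 15 and in the 11, so these medians are not independent of them. The median was 2.46 over the 51 in which neither was found to share one. The order of the medians thus depended on how the pairs were split. Genes without a mature sequence in the RefSeq table were placed with those that do not share, though their sharing is not known. The median was 0.84 over the 4 pairs in which both share and 1.21 over the 3 in which only the higher gene does. These are descriptions of 2 libraries and no test was made.

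**Figure D4:**
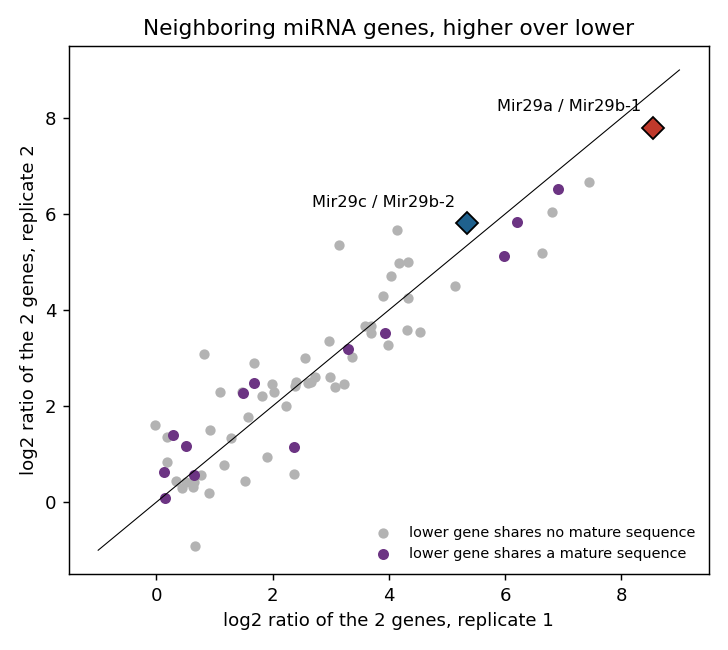
log2 ratio of reads, higher over lower gene, for 69 pairs of neighboring miRNA genes in replicate 1 (x axis) and replicate 2 (y axis), with the line of equality; purple points have a lower gene that shares a mature sequence with another gene. The diamond of Mir29a over Mir29b-1 lies farthest out, at 8.54 and 7.79, and Mir29c over Mir29b-2 lies at 5.35 and 5.81.

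A like arrangement is found where miR-24 is encoded beside miR-23 and miR-27 at separate loci, with 1 mature arm identical between Mir24-1 and Mir24-2. Mir24-1 had 0.204% of the reads of its neighbor Mir23b in replicate 1 and 0.288% in replicate 2, and Mir24-2 had 0.882% and 0.789% of those of Mir23a. Mir29b-1 had 0.269% and 0.451% of Mir29a, and Mir29b-2 had 2.46% and 1.79% of Mir29c. Against the other neighbors, Mir24-1 had 1.36% and 1.76% of Mir27b, and Mir24-2 had 31.1% and 17.8% of Mir27a. The miR-181 loci differed from each other. Mir181b-1 was below its partner, with 6.55% and 8.68% of the reads of Mir181a-1. Mir181b-2 was above its partner, with 1313% and 1987% of the reads of Mir181a-2. At these loci each partner shares an arm with another gene. Among all 57 genes with some but not all mature sequences shared, 41 had at least 10 reads in each library, with a median of 42.5 CPM. That median gene is Mir29b-1 itself, and Mir29b-2 is at place 25 of 41. The 277 detected genes with no shared mature sequence had a median of 117 CPM.

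The libraries were compared gene by gene over the whole table, replicate 2 against replicate 1, by a two-sided Fisher's exact test with Benjamini-Hochberg adjustment, on the 455 genes whose reads summed to at least 10 over the libraries. Mir29a was lower in replicate 2, at 9859 against 15047 CPM, which is -0.61 on the log2 scale (adjusted p under 1e-300). Mir29c was slightly higher there, at 1340 CPM after 1275 CPM, or 0.07 on the log2 scale (adjusted p = 0.0120). Mir29b-1 had a log2 ratio of 0.14 (adjusted p = 0.468) and Mir29b-2 of -0.39 (adjusted p = 0.0523), and neither was called. The call of Mir29c ended in the both-strand column (adjusted p = 0.113) and with all reads as denominator (adjusted p = 0.642). So 2 of the 4 genes were called, 1 higher and 1 lower, against 52.5% of all tested genes, 16.9% of them higher and 35.6% lower. A call by this test is therefore common. It weighs the libraries against counting error alone and says nothing of a condition.

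A test that adds the spread between the libraries says little here, because each side is 1 library and the spread is estimated from the same 2 libraries that are compared. The exact test of edgeR, given 1 common dispersion, returned an adjusted p of 1 for each gene, with 0 of 4 at an unadjusted p under 0.05, against 1.1% of the 455 genes called and 26 at an unadjusted p under 0.05. The unadjusted p of Mir29a by edgeR was 0.348. An absolute log2 ratio at least as large as that of Mir29a was seen in 177 of the 455 genes (38.9%). The median log2 ratio of the 4 genes was -0.16 and that of all tested genes -0.18. TMM normalization raised every log2 ratio by 0.14 and DESeq2 size factors by 0.19. Under TMM this gave -0.47 for Mir29a and 0.21 for Mir29c. Calls over all genes were 77 higher and 162 lower by Fisher's exact test. They were 111 and 125 by a binomial test with TMM totals, so the test changed along with the scaling.

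**Figure D5:**
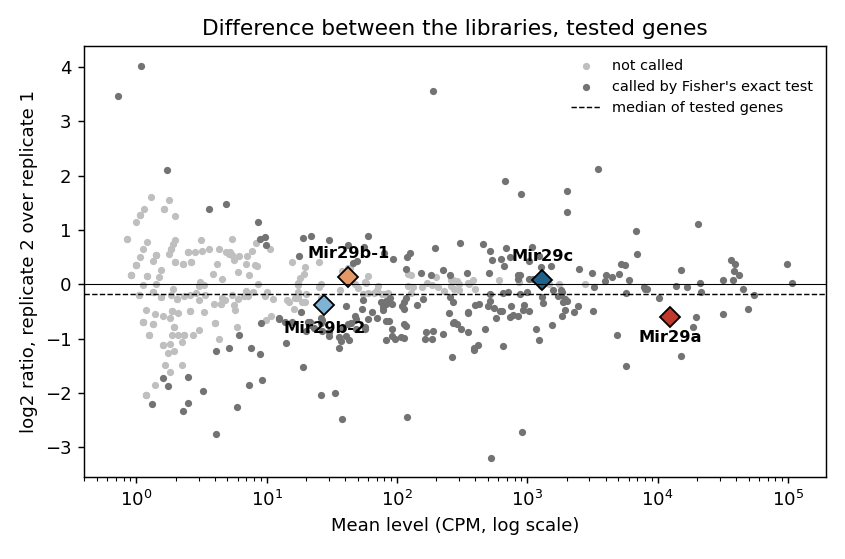
log2 ratio of replicate 2 over replicate 1 (y axis) against mean level in CPM (x axis, log scale) for 455 tested miRNA genes; dark points were called by Fisher's exact test, light points were not, the dashed line is the median of -0.18, and diamonds are the miR-29 genes. Mir29a at -0.61 and Mir29c at 0.07 lie within the cloud of genes of similar level.

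The change of balance between the loci does not depend on scaling. Reads of the chromosome 6 locus over those of the chromosome 1 locus were 11.5-fold in replicate 1 (95% interval 11.2 to 11.9) and 7.26-fold in replicate 2 (7.10 to 7.42). These are assigned reads, without the shared reads of miR-29b-3p, and so not the whole output of the loci. Nearly all of this is Mir29a over Mir29c, at 11.8-fold (11.4 to 12.2) and 7.36-fold (7.20 to 7.52). The intervals do not overlap, which concerns counting error alone. Mir29b-1, the partner of Mir29a, was at 40.4 and 44.5 CPM and was not called.

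Cell type markers gave the setting. The adrenal endocrine list was at 50599 and 48308 CPM in replicates 1 and 2, led by Mir375, a miRNA of hormone-secreting cells, at 46454 and 43996 CPM (the log2 ratio of -0.08 turned to 0.06 under TMM). The other genes of that list, Mir7b and Mir7-1, had log2 ratios of 0.06 and 0.09. Mir7-1 shares a mature sequence with another gene, so full reads of it are left out. Mir7-2, a miR-7 gene outside the list, also shares one and was at 110 and 54.2 CPM, a log2 ratio of -1.02. The stromal and fibroblast list stood at 898 and 588 CPM, nearly all of it Mir214, a miRNA of mesenchymal cells, at 881 and 582 CPM with a log2 ratio of -0.60. Mir199a-1 was at 0, while Mir199a-2 and Mir199b stood at 3.02 ± 0.394 and 9.24 ± 7.15 CPM (SD, n = 2), and all 3 share a mature sequence with another gene. The endothelial marker Mir126a was at 56684 and 41532 CPM, and the smooth muscle pair Mir143 and Mir145a at 23925 and 21489 CPM together. The immune list, with 4 of 4 genes detected, was at 1147 and 854 CPM, and the red cell list, Mir451a and Mir144, at 427 and 175 CPM. All tested genes of the 5 lists after the endocrine one, except Mir199a-2, were called lower in replicate 2. So was Mir29a, and so were 35.6% of all tested genes. Mir143, though, turned to 0.00 under TMM and 0.05 with DESeq2 size factors. The part of these lists in the difference of Mir29a was not tested. Liver (Mir122 at 78.1 and 108 CPM), kidney (55.8 and 32.8 CPM) and striated muscle markers (4.95 and 5.20 CPM, with Mir1a-1, Mir1a-2, Mir133a-1 and Mir133a-2 at 0) had low counts. Whether reads of the 4 muscle genes at 0 are shared between copies was not checked, so these counts do not show that muscle was absent. In the kidney list, Mir194-1 and Mir194-2 each share a mature sequence with another gene, so full reads of it are left out.

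Other miRNAs linked to the matrix give the company in which miR-29 is found. Of 19 genes listed as restraining it, 15 were detected and tested, and 4 were higher and 5 lower in replicate 2 by Fisher's exact test, with a median log2 ratio of 0.01. One of the 5, Mir30a, went from -0.17 to 0.02 with DESeq2 size factors. By assigned reads, the most abundant members of this list were Mir26b at 21167 ± 152 CPM (SD, n = 2), from a family that acts on growth and fibrosis genes, Mir30a at 5716 ± 463 CPM and Mir30e at 5686 ± 3854 CPM, whose family acts on connective tissue growth factor. Mir29a lay between Mir26b and the latter genes. Of the 19, 4 were found to share a mature sequence with another gene, namely Mir26a-1, Mir26a-2, Mir30c-1 and Mir30c-2. Full reads of a shared sequence are assigned to no gene, so the place of these genes in the ranking is not known. Of 8 genes listed as promoting fibrosis, 7 were tested, with 2 higher and 4 lower and a median log2 ratio of -0.29. Over all tested genes 16.9% were higher and 35.6% lower, with a median of -0.18. Of the 8, 4 are also the stromal markers above. Mir21a, a miRNA induced in activated fibroblasts, was the highest at 20539 ± 10653 CPM and went the other way from Mir29a, from 13006 CPM in replicate 1 to 28072 CPM in replicate 2, a log2 ratio of 1.11. It was followed by Mir34a at 3145 ± 330 CPM and Mir214 at 731 ± 212 CPM. Mir29a was thus above Mir21a in replicate 1 and below it in replicate 2. By edgeR's exact test 0 of the 7 and 1 of the 15, Mir26a-2, were called.

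The genes closest in level over both libraries, by Euclidean distance of log2(CPM + 1) in the 2 libraries, were Mir322 (distance 0.45) and Mir652 (0.49) for Mir29a. For Mir29c they were Mir134 (0.09) and Mir146 (0.18). For Mir29b-1 they were Mir1198 (0.11) and Mir6516 (0.12), and for Mir29b-2 Mir1941 (0.01) and Mir200c (0.10). With 2 libraries this is likeness of level and no more. The search left out the miR-29 genes themselves, so it cannot show whether partners are alike.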

How the data were processed

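The authors deposited 1 table of raw read counts per library, with 3 unnamed count columns for 2202 miRNA genes. The mm10 assembly and the GENCODE M21 annotation are stated in the deposited notes. The sources used here do not give the aligner, the counter or the adapter trimming. The columns were read from the values as both strands, 1 strand and the opposite strand, since the last 2 sum to the first plus 2 times the ambiguous reads. The single-strand column is the main one here. Left out of the library totals as naming no gene were unmapped reads (16.1% and 16.5% of reads in replicates 1 and 2), multimapping reads (31.6% and 33.6%) and reads on no miRNA gene (5.55% and 4.99%). A count of 0, taken as up to 3 reads, allows 0.825 and 0.433 CPM. mm10 is the C57BL/6J genome, and the effect of CAST alleles on mapping was not tested.

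The members and the gene lists were chosen with earlier results of these data known. Genes named are the members, the 2 nearest genes of each by level, up to 3 of the most abundant of each matrix list, the cell type markers and a list of miRNAs with 2 copies. Seed matches, neighboring pairs and classes of shared sequence were added after the files were seen, as descriptions. Log2 ratios used an offset of 0.5 counts. Fisher's exact test ran across all genes at a threshold of 0.05. Calls with TMM totals or DESeq2 size factors came from a binomial test of each gene's reads in the libraries, with the same adjustment and threshold. edgeR's exact test took the common dispersion (a coefficient of variation of 31.4% over 356 genes). The libraries differ beyond sampling noise (chi-square of 232300 on 454 degrees of freedom). On simulated data Fisher's exact test recovered the changed genes and, once spread between libraries was added, also called many unchanged ones. edgeR's exact test recovered only very large changes there. The simulated spread was smaller than that estimated here, and the number of changed genes differed between simulations along with their size. The outcome thus does not show what either test can find in these libraries. Tests and scaling used edgeR 4.0.16 and DESeq2 1.42.0 (size factors only) in R 4.3.3, with scipy 1.17.1 and pandas 2.3.3 in Python 3.11.15.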

Additional observations from a re-analysis of the deposited data

How the results depend on the processing

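The partner and locus ratios were the same in the both-strand column, as these genes have equal reads in it. Leaving out a replicate gave 9859 to 15047 CPM for Mir29a, 1275 to 1340 for Mir29c, 40.4 to 44.5 for Mir29b-1, 24.0 to 31.4 for Mir29b-2 and 1.13 to 1.64% for the family. With all reads of the library as denominator, Mir29a stood at 5736, Mir29c at 599.7, Mir29b-1 at 19.5 and Mir29b-2 at 12.7 reads per 1000000 and the family at 0.637%. In the both-strand column, Mir29c stood at 1492 and Mir29b-1 at 48.4 CPM. No log2 ratio of a member changed sign under any scaling, filter or column tried. edgeR's exact test called 5 genes against 239 by Fisher's exact test, and ended the calls of Mir29a (-0.61) and Mir29c (0.072), with a dispersion taken from the libraries it compares. Mir29c also lost its call in the both-strand column (0.048) and over all reads (0.016). Mir29b-2 gained one in the both-strand column (-0.41), over all reads (-0.45) and with 10 reads required in each library (-0.39). Mir29b-1 gained one with DESeq2 size factors and the binomial test (0.32). Adjusted p for Mir29b-2 ranged from 0.0265 to 1. With DESeq2 size factors and the binomial test 121 genes were higher and 117 lower. Over all reads, by Fisher's exact test, 64 were higher and 179 lower. No paired analysis was possible because there is a single group. Depth limits Mir29b-1 and Mir29b-2, which rest on 114 to 308 reads a library.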
